A study of Mus musculus with 6 samples.

Results

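The genes described here encode the subunits of the transcription factor NF-kB and proteins that regulate it, listed here as inhibitors. The subunit genes are Nfkb1, Nfkb2, Rel, Rela and Relb, and the others are Nfkbia, Nfkbib, Nfkbie, Nfkbiz and Tnfaip3. They were taken as a list of 10 genes, chosen with earlier results of these data known. A gene was kept if the platform annotation gave it a probe set of its own, and the brightest such probe set stood for the gene. This gave 9 genes, each with 1 probe set, of the 19938 genes measured, and Nfkb1 was not analysed here. The expression values came from 6 whole-transcript mouse arrays of muscle satellite cells, the resident stem cells of skeletal muscle, and the comparison asked how transcript levels differ after growth in culture. The cultured group consisted of 3 arrays of satellite cells kept for 5 days on collagen and laminin in medium that held 20% horse serum, to which 5 ng/ml of basic fibroblast growth factor was added every day. The fresh group consisted of 3 arrays of satellite cells analysed after sorting, without culture. All cells came from resting hind-limb, abdominal and triceps muscle of 2-month-old C57BL/6J mice, with no genetic change named, and were sorted for beta-1 integrin and CXCR4 and against CD45, CD31, CD11b, Ter119 and Sca1. The labels name 3 mice and do not say which mouse gave which array. The tests therefore see only the spread from array to array, which may be technical, and the small number of arrays limits the precision.

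NF-kB is a dimer of proteins that share the Rel homology domain, which binds DNA. Rela, Rel and Relb carry an activation domain of their own, whereas Nfkb2 encodes a precursor that is cut to yield a subunit without one. In resting cells IkB proteins cover the dimers and keep them in the cytoplasm. Signals from cytokine receptors activate a kinase complex that marks IkB for destruction, the dimers enter the nucleus, and among the genes they switch on are those of their own inhibitors. In skeletal muscle NF-kB is known for its part in inflammation and wasting and for a brake on differentiation in myoblasts.

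The binding site of NF-kB dimers, the kappaB site, is known in the promoters of several of these genes, so the sequences before their starts are given ahead of the values. The 250 bases before each RefSeq start of transcription (GRCm38.p6) were searched on both strands for the kappaB decamer, which is 3 guanines, a purine, any 2 bases, 2 pyrimidines and 2 cytosines, and overlapping matches were merged. Sequences were found for 7 of the 9 genes, with 10 annotated starts between them. The 250 bases before the start of Nfkbia, the inhibitor with the largest difference below, lie at chr12:55492648-55492897 on the minus strand and hold 1 match, from position -29 to -20 counted from the start. The whole window is printed 5′ to 3′ with the match in capitals.
Nfkbia: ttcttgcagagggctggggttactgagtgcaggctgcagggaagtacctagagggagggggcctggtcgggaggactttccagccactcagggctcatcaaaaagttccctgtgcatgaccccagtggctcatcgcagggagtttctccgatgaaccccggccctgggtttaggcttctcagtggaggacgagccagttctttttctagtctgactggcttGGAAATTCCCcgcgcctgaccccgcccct
The matches of Rel, Nfkbie, Nfkb2 and Tnfaip3 are shown with up to 25 flanking bases, matches in capitals. The stretch of Rel lies at chr11:23771026-23771086 on the minus strand and that of Nfkbie at chr17:45555569-45555628 on the plus strand. That of Nfkb2 lies at chr19:46304673-46304736 on the plus strand, before the first of its 3 listed starts. That of Tnfaip3 lies at chr10:19015411-19015560 on the minus strand, before the first of its 2. All capitals were picked by the same pattern, so their likeness follows from the search.
Rel: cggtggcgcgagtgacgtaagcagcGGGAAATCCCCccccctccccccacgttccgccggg
Nfkbie: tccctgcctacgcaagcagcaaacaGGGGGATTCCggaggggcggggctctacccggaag
Nfkb2: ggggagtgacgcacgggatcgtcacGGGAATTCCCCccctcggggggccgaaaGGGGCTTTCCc
Tnfaip3: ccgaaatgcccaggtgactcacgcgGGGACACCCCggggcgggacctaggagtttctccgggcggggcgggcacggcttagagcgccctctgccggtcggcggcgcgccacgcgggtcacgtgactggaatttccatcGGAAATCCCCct
Nfkb2 and Tnfaip3 each held 2 matches before that start, and the other starts of Nfkb2 held 1 each. Rela and Nfkbib held none. In all, 5 of the 7 genes had a match before at least 1 start, against 9.49% of the 15614 measured genes with a listed start, and 7 of the 10 windows had a match, against 7.25% of all 32851 windows. A match is a description of the letters and does not show that the factor binds there.

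**Figure D1:**
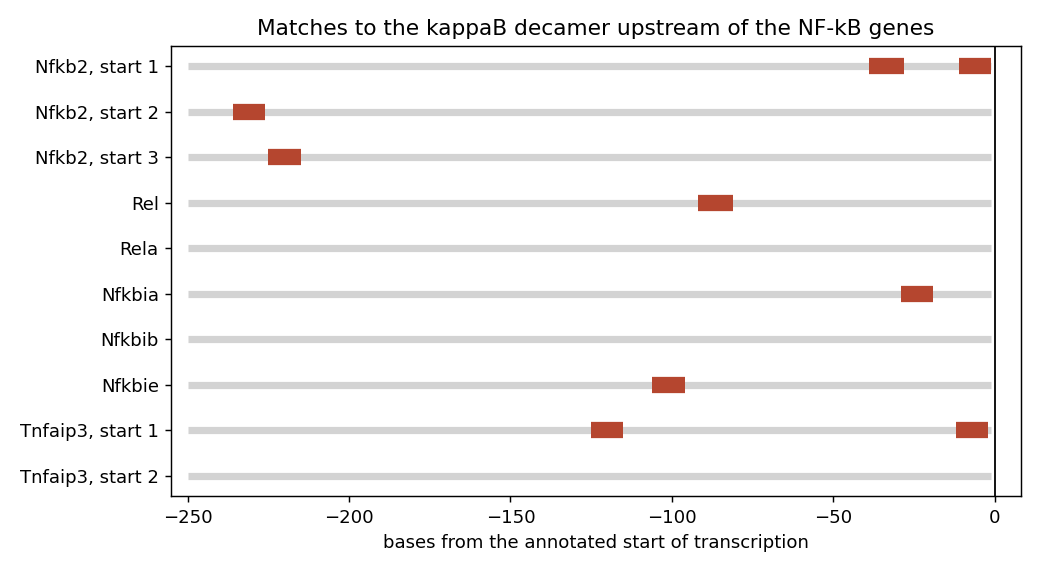
Position of each match to the kappaB decamer (red) in the 250 bases before the annotated starts of the 7 NF-kB genes with a listed sequence; the x axis gives bases from the start of transcription, at the black line. Nfkbia, Rel, Nfkbie, Nfkb2 and Tnfaip3 hold matches, which begin at -29 in Nfkbia, -92 in Rel and -106 in Nfkbie, and the windows of Rela and Nfkbib hold none.

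On the scale of the deposited values, 8 of the 9 NF-kB genes fell in the cultured cells and none rose, 7 of them by at least 2-fold and Nfkbie by at least 1.82-fold, but when each array was centred on ribosomal protein genes none passed the test and 7 had positive values. Nfkbia, the main IkB, fell by 3.98 ± 0.22 on the log2 scale (SE), which is 15.8-fold. Nfkbiz, a nuclear IkB, fell by 2.50 ± 0.23, and the activating subunit Rela by 1.93 ± 0.31. Relb, the partner of the Nfkb2 product, was at -0.40 ± 0.14 and did not pass. The test was limma over all genes with Benjamini-Hochberg adjustment at an adjusted p of 0.05, which 4.32% of the genes tested passed, 3.37% in the lower direction and 0.953% in the higher. The 3 cultured values lay below all 3 fresh values for 9 of the 9 genes, and for 10.3% of all genes. The 9 genes were chosen with earlier results of these data known, so they are no independent draw from all genes. The median log2 fold change was -1.38 over the 9 genes, also with Nfkbie at its bound, and 0.04 over all genes. In these bulk samples fewer cells that carry a transcript and less transcript per cell cannot be told apart.

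Centring on 14 ribosomal protein genes added 2.10 to every log2 fold change and took the median of all genes to 2.15. It also raised the SE of each NF-kB gene to 0.96, against 0.13 to 0.31 on the deposited scale. The calls were thus lost with a wider spread as well as the shift. Relative to that median the 9 genes lay between -4.02 for Nfkbia and -0.44 for Relb. The ribosomal protein genes had array medians of 12.18, 8.88 and 9.86 on cultured replicates 1, 2 and 3, against 12.42, 12.43 and 12.37 on the fresh arrays, so this centring moved cultured replicate 2 most. Across all probe sets Pearson's r was 0.938 to 0.962 between cultured arrays and 0.965 to 0.971 between fresh arrays. Cultured replicate 1 correlated with the fresh arrays at 0.935 to 0.942, about as highly as with cultured replicate 2 (0.938), and above the other cultured arrays, whose r with fresh arrays was at most 0.922. Without cultured replicate 1, 8 NF-kB genes passed the test, all lower, against 1517 of all 19938 genes, 1278 of them lower. With quantile normalization and with cyclic loess, 8 NF-kB genes passed in each case, all lower, and Nfkbia was at -3.64 and -3.70. Of all 19938 genes 1511 and 1492 passed with these normalizations, 925 and 1035 of them lower. These shares are larger than in the main setting.

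**Figure D2:**
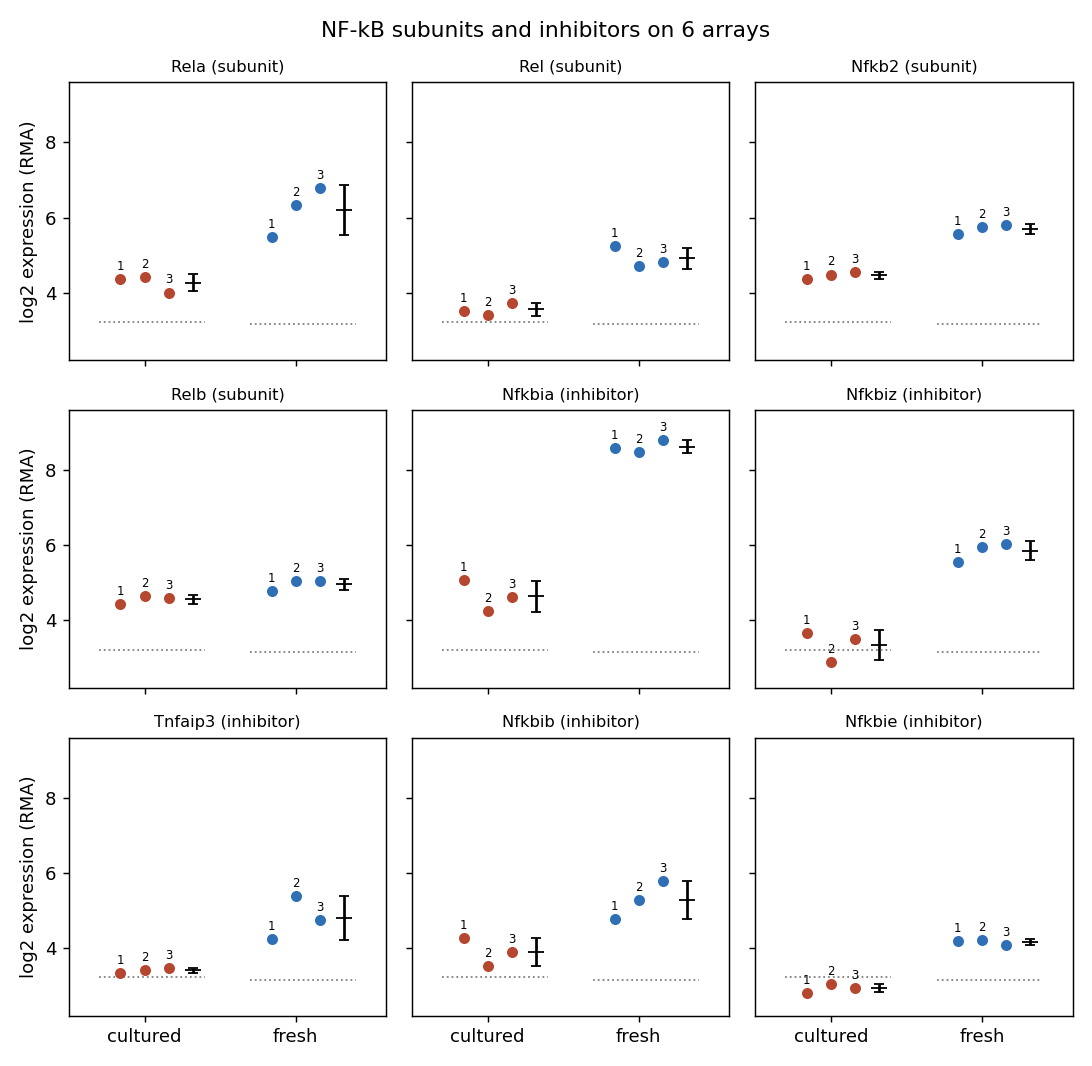
Log2 expression (y axis, RMA values) of the 9 NF-kB genes on the 3 cultured arrays (red, left) and the 3 fresh arrays (blue, right); numbers are replicates, black bars the mean ± SD (n = 3), and dotted lines the background level of the group. On this scale the red points lie below the blue points in every panel, but with arrays centred on ribosomal proteins 7 of the 9 mean differences turn positive; levels of different genes cannot be compared, since each has its own probes.

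Among the subunits, Rela encodes the activating partner of the classical dimer. Rela was at 4.37, 4.42 and 4.01 on cultured replicates 1, 2 and 3, against 5.48, 6.33 and 6.78 on fresh replicates 1, 2 and 3. The groups did not overlap, and the fresh arrays were spread over more than the cultured ones, with fresh replicate 1 lowest. The 3.82-fold difference had a 95% interval of -2.66 to -1.21 on the log2 scale and a limma adjusted p of 0.0132. This call was lost without cultured replicate 3 (adjusted p = 0.0742) or without fresh replicate 2 (adjusted p = 0.0697).

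Rel encodes c-Rel, a subunit best known from lymphocytes. Rel was at 3.52, 3.41 and 3.73 on the cultured arrays, against 5.23, 4.70 and 4.82 on the fresh arrays. The fresh replicate that was lowest for Rela was the highest for Rel. Rel fell by 1.36 ± 0.18 on the log2 scale (limma adjusted p = 0.0051), and the call was kept without any 1 array. On cultured replicate 2 Rel lay just above background, as defined below for Nfkbie, at 3.41 against 3.40.

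Nfkb2 encodes the precursor of the noncanonical branch, which itself can act as an inhibitor until it is cut. Nfkb2 was at 4.36, 4.48 and 4.55 on the cultured arrays, against 5.55, 5.75 and 5.81 on the fresh arrays. Both groups were tight, with SDs of 0.098 in cultured and 0.13 in fresh cells (n = 3 each). Nfkb2 fell by 1.24 ± 0.14 on the log2 scale (limma adjusted p = 0.00242), and the call was kept whichever array was left out.

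Relb encodes the subunit that pairs with the product of Nfkb2. Relb was at 4.44, 4.65 and 4.59 on the cultured arrays, against 4.78, 5.05 and 5.05 on the fresh arrays. The groups lay next to each other, 0.13 apart at the nearest arrays. The 95% interval of the difference was -0.73 to -0.07 before adjustment and the limma adjusted p was 0.195, so that Relb was the only 1 of the 9 genes not past the test. Of the 4 subunits measured, 3 fell and the median log2 fold change was -1.30.

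The classical inhibitors are the IkB proteins alpha, beta and epsilon, encoded by Nfkbia, Nfkbib and Nfkbie. Nfkbia was at 5.07, 4.25 and 4.61 on the cultured arrays, against 8.60, 8.47 and 8.81 on the fresh arrays. Its 2 groups were the farthest apart of the 9 genes, with the lowest fresh array 3.40 above the highest cultured array. The 95% interval of the log2 fold change was -4.49 to -3.47 with a limma adjusted p of 5.29e-05, and leaving out single arrays moved the value only between -4.19 and -3.78.

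Nfkbib encodes the beta form, which is known to be lost more slowly upon signalling than the alpha form. Nfkbib was at 4.28, 3.52 and 3.89 on the cultured arrays, against 4.78, 5.27 and 5.79 on the fresh arrays. The groups did not overlap, but neither was tight, with SDs of 0.38 in cultured and 0.50 in fresh cells (n = 3 each). It fell by 1.38 ± 0.29 on the log2 scale, at a limma adjusted p of 0.0393. The call was lost when cultured replicate 2 or 3, or fresh replicate 2 or 3, was left out, with a largest adjusted p of 0.149.

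Nfkbie was the 1 gene of the 9 with every cultured array at background, which was taken from 1196 olfactory and vomeronasal receptor genes as their 95th percentile on each array. Nfkbie was at 2.81, 3.03 and 2.95 on the cultured arrays, against 4.18, 4.22 and 4.09 on the fresh arrays. All 3 cultured values lay below background and all 3 fresh values above it. The fitted log2 fold change of -1.23 (limma adjusted p = 0.00198) is therefore better read as at least 1.82-fold lower in cultured cells, the distance to the background level.

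Nfkbiz and Tnfaip3 act at other points of the pathway. Nfkbiz encodes an IkB that works in the nucleus, where it helps to switch on a subset of targets such as Il6. Nfkbiz was at 3.66, 2.89 and 3.50 on the cultured arrays, against 5.56, 5.95 and 6.04 on the fresh arrays. Cultured replicate 2 lay below background and the other cultured arrays above it. The 5.67-fold difference had a limma adjusted p of 0.000921 and was kept without any 1 array.

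Tnfaip3 encodes a ubiquitin-editing enzyme that switches off signalling upstream of the IkB kinases. Tnfaip3 was at 3.33, 3.41 and 3.48 on the cultured arrays, against 4.24, 5.39 and 4.76 on the fresh arrays. The cultured values were close to each other and just above background, with an SD of 0.074, against 0.58 in fresh cells (n = 3 each). It fell by 1.39 ± 0.27 on the log2 scale (limma adjusted p = 0.0292), and the call was lost when cultured replicate 2 or 3, or fresh replicate 3, was left out, with a largest adjusted p of 0.112. Of the 5 genes listed as inhibitors, Nfkbiz among them, 5 fell, with a median log2 fold change of -1.39, also with Nfkbie at its bound.

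**Figure D3:**
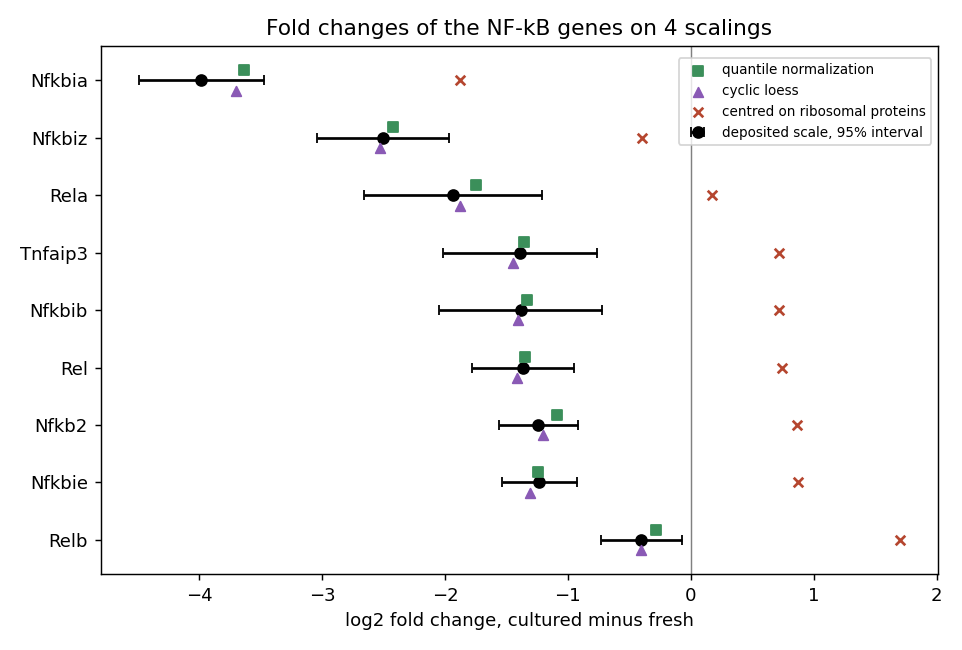
Log2 fold change of each NF-kB gene, cultured minus fresh (x axis), on the deposited scale with its 95% interval (black, n = 3 arrays per group) and after 3 further scalings. Nfkbia at -3.98 stands lowest and Relb at -0.40 highest on the deposited scale; after centring on ribosomal proteins, 7 genes lie above 0, and Nfkbia and Nfkbiz stay below it. The point of Nfkbie is a fitted value whose cultured arrays lie below background.

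The log2 fold changes ran from -3.98 to -0.40. In the order of their fold changes, from Nfkbia over Nfkbiz, Rela, Tnfaip3, Nfkbib, Rel, Nfkb2 and Nfkbie to Relb, each gene was set against the next through the difference of the pair on every array. The 3 cultured differences lay wholly outside the 3 fresh ones in 2 of the 8 pairs, Nfkbia with Nfkbiz and Nfkbie with Relb. For these the exact permutation test, two-sided, gave p = 0.10, the smallest value that 3 arrays against 3 allow, and 0.4 after adjustment over the 8 pairs. For the other 6 pairs it gave 0.3 to 1. From Nfkbiz down to Nfkb2 the neighbours overlapped in these differences. The 2 pairs with Nfkbie use cultured values below background, so its place in the order is not settled.

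Nfkbia was also set against Rela, the subunit it holds, in a pair chosen after the values were seen. The log2 value of Nfkbia minus that of Rela was 0.70, -0.17 and 0.61 on the cultured arrays, against 3.11, 2.14 and 2.03 on the fresh arrays. The groups did not overlap. Between the groups this difference moved by -2.05, with an exact permutation p of 0.10, two-sided, again the smallest possible.

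The lowest array of a group changed from gene to gene. Fresh replicate 1 was the lowest fresh array for 6 of the 9 genes, fresh replicate 2 for 2 and fresh replicate 3 for 1. Of the cultured arrays, replicates 1 and 2 were each lowest for 4 genes and replicate 3 for 1. Cultured replicate 2 was lowest for Nfkbia, Nfkbiz, Nfkbib and Rel. Over the 9 genes the number past the test was 5 without cultured replicate 3, with Rela, Nfkbib and Tnfaip3 lost, and 6 to 8 without any other single array. Over all 19938 genes it was 448 without cultured replicate 3 and 471 to 1517 without any other. On the deposited scale the 9 log2 fold changes stayed negative whichever array was left out.

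The 5 genes whose values over the 6 arrays were most like those of Nfkbia, by Euclidean distance of the centred log2 values among 19937 genes, were Cebpd, Ier2, Rhoj, Snord14e and Ccnl1. They are a leucine-zipper transcription factor, an immediate early gene, a small GTPase, a small nucleolar RNA and a cyclin linked to splicing. Their distances were 0.36 to 0.61, against 1.86 for Nfkbiz, the nearest of the other NF-kB genes, and a median of 4.98 over all genes. Cebpd was at 4.54, 3.96 and 4.10 on the cultured arrays, against 7.92, 7.89 and 8.05 on the fresh arrays. In Cebpd, as in Nfkbia, cultured replicate 1 was the highest and cultured replicate 2 the lowest of the cultured arrays. This order was not particular to the pair, since the array medians of the ribosomal protein genes had it too. Of the other NF-kB genes, Nfkbiz and Nfkbib had it and the rest did not.

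The rest of the pathway was described with 6 lists, 106 genes in all, of which 97 were measured. In these lists 18 genes fell and 1 rose on the deposited scale, and 78 did not pass. With arrays centred on ribosomal proteins the split was 1 lower and 44 higher, which is 45.4% higher, against 61.6% of all genes in that setting. Without fresh replicate 2 the count was 12, all lower. Over all genes it was then 478, of which 419 were lower. The members of the lists were chosen with earlier results of these data known, and they are read against the 3.37% of all genes that fell.

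Of the 16 receptors measured, 2 fell and none rose, with a list median of -0.05. Tnfrsf1a, the main receptor of tumour necrosis factor, was at 4.60, 4.63 and 4.25 on the cultured arrays, against 5.57, 5.89 and 5.97 on the fresh arrays. The 2 groups were 0.94 apart at their nearest arrays, and Tnfrsf1a fell by 1.31 on the log2 scale (limma adjusted p = 0.00502). Tnfrsf12a, the receptor of the cytokine TWEAK, was at 7.28 ± 0.48 in cultured and 9.09 ± 0.11 in fresh cells (SD, n = 3 each). It fell by 1.81 on the log2 scale (adjusted p = 0.00493), but was at -1.10 with an adjusted p of 0.0565 after cyclic loess. None of the 11 ligands measured passed the test, and 8 of them had both group means within background. At an unadjusted limma p under 0.05 there were 2, Il18 and Ltb, both named after their values were seen. Tnfsf11, the cytokine of osteoclast formation and the ligand with the highest mean signal, was at 5.48 ± 0.10 in cultured and 5.33 ± 0.032 in fresh cells, with an adjusted p of 0.602.

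Between receptors and the IkB kinases, 2 of 16 adaptors and ubiquitin ligases fell and none rose, with a median of -0.02. Birc3, a ubiquitin ligase of the receptor complex and itself a known NF-kB target, was at 3.23, 2.78 and 3.21 on the cultured arrays, against 6.47, 6.34 and 6.48 on the fresh arrays. Of the 3 cultured values, 2 were at or below background. Birc3 fell by 3.36 ± 0.16 on the log2 scale (limma adjusted p = 3.03e-05). Myd88, the adaptor of the interleukin 1 and Toll-like receptors, fell by 1.78 (adjusted p = 0.0177), a call lost without fresh replicate 2 (adjusted p = 0.0595).

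Of the 12 kinases and kinase partners measured, 2 fell and none rose, with a median of -0.06. Tank, which binds TRAF proteins and the kinase Tbk1, was at 4.98, 3.25 and 3.97 on the cultured arrays, against 6.24, 5.90 and 6.49 on the fresh arrays. It fell by 2.14 on the log2 scale (limma adjusted p = 0.0249), with a wide spread in culture. Map3k8, a kinase held by the precursor of Nfkb1, fell by 1.02 (adjusted p = 0.0196). Both calls were lost without 4 of the 6 single arrays, at adjusted p of up to 0.115 and 0.0693. Ikbkb and Ikbkg, the catalytic and scaffold parts of the IkB kinase, named after their values were seen, were at -0.03 and 0.30 with adjusted p of 0.94 and 0.299. Both had 2 cultured arrays at background, and Ikbkg all 3 fresh arrays too.

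Of 13 other IkB proteins and brakes, Tax1bp1 fell and none rose, with a list median of -0.16. Tax1bp1, an adaptor that brings the Tnfaip3 product to its substrates, was at 4.93, 4.17 and 4.08 on the cultured arrays, against 6.04, 6.32 and 6.20 on the fresh arrays. The nearest arrays of the 2 groups were 1.11 apart, and the fall of 1.80 had a limma adjusted p of 0.00506. The nuclear IkB protein gene Bcl3 was at 5.06 ± 0.13 in cultured and 5.70 ± 0.15 in fresh cells (SD, n = 3 each), with an adjusted p of 0.0526.

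Of the 6 lists, that of known NF-kB target genes held the most genes past the test. Of 29 measured, 11 fell and 1 rose on the deposited scale, with a list median of -0.36, and 7 had both group means within background. Cxcl2 and Il6, named after their values were seen, fell but were at background on all 3 cultured arrays, and Il6 on 1 fresh array too. Their falls are better read as at least 8.96-fold and 1.03-fold, so that little is known of the size for Il6. Ier3, a survival gene, was at 3.94, 4.35 and 3.64 on the cultured arrays, against 8.62, 7.77 and 8.03 on the fresh arrays. Gadd45b, a stress gene that restrains the JNK pathway, was at 3.98 ± 0.051 in cultured and 7.90 ± 0.044 in fresh cells (SD, n = 3 each). Both fell by about as much as Nfkbia, at -4.16 for Ier3 and -3.92 for Gadd45b on the log2 scale, with limma adjusted p of 0.000109 and 1.01e-05. The chemokine genes Cxcl1 at -5.93 and Ccl7 at -4.10 had limma adjusted p of 2.82e-05 and 3.03e-05. The 1 that rose, singled out after its value was seen, was the survival gene Bcl2l1, at 4.87, 4.41 and 4.65 on the cultured arrays, against 3.74, 3.90 and 3.82 on the fresh arrays. It was 0.82 higher on the log2 scale (adjusted p = 0.0268), a call lost without cultured replicate 3 or any 1 of the fresh arrays, at adjusted p of up to 0.114.

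**Figure D4:**
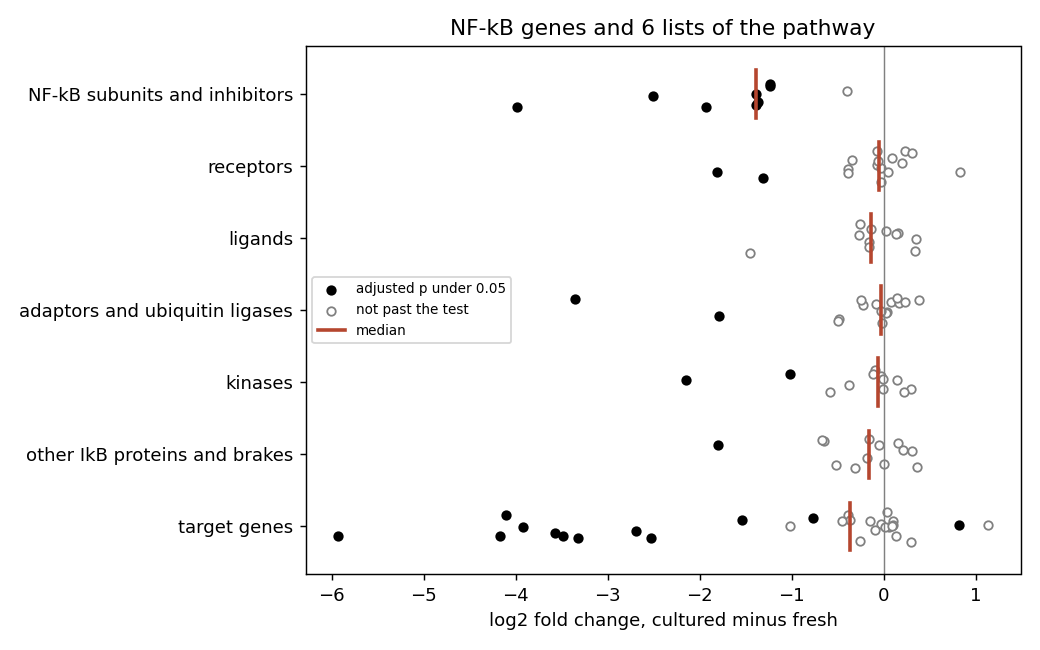
Log2 fold change, cultured minus fresh (x axis, deposited scale), of each measured gene of the NF-kB subunits and inhibitors and of 6 lists of the pathway; filled points passed an adjusted p of 0.05, open points did not, and red bars are list medians. The median of the NF-kB genes is -1.38 and those of the receptor, ligand, adaptor and kinase lists lie between -0.14 and -0.02; all values would shift by 2.10 to the right with arrays centred on ribosomal proteins, where 7 of the NF-kB genes turn positive.

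Markers of other cells and of handling moved beside these genes to different degrees. The counts below stand beside the 3.37% of all genes that passed the test lower in culture and the 0.953% that passed higher. Of 12 satellite cell markers, 8 fell on the deposited scale, and 10 were above background on all 6 arrays. Vcam1, among those that fell, was also counted with the NF-kB target genes. Chodl was within background on all 3 cultured arrays and Calcr on 1. Of the positive markers of the sort, Cxcr4 fell by 2.47 on the log2 scale (limma adjusted p = 0.000398). Itgb1, which encodes beta-1 integrin, was at -0.55 and did not pass (limma adjusted p = 0.602). Ptprc, Itgam and Pecam1, which encode the CD45, CD11b and CD31 of the sort, had group means within background in both groups. Of 8 endothelial markers 1 fell, Tek, which was at 2.58 in cultured cells, within background, and 3.34 in fresh cells (limma adjusted p = 0.0413), and 5 had both group means within background. None of 12 macrophage and monocyte, 8 neutrophil, 7 T and NK cell and 4 B cell markers passed the test, at limma adjusted p of 0.0995 or more and with 1, Cd68, at an unadjusted p under 0.05, and 24 of these 31 were within background on all 6 arrays. Cd68 was lower in culture, at 3.14 in cultured and 3.74 in fresh cells. The summed macrophage level, as log2 of the added linear values, was 6.23 to 6.35 on the cultured arrays, against 6.26 to 6.40 on the fresh arrays. Of these 12 markers 10 were within background on all 6 arrays, so the sum says little about macrophage content. Of 7 markers of fibro-adipogenic cells, Dpt, Dcn, Gsn and Col3a1 fell and none rose, and Lum was within background. Pdgfra at 0.27 and Col1a1 at -0.13 on the log2 scale did not pass (limma adjusted p = 0.417 and 0.744). Dpt and Dcn were within background on all 3 cultured arrays, and Dcn ran from 5.86 to 8.53 on the fresh arrays. The summed levels of the 7 were 6.84 to 7.01 on the cultured arrays, against 8.90 to 9.59 on the fresh arrays. Of 7 mast cell and basophil markers Mcpt8 and Milr1 rose, while Kit, Cpa3, Fcer1a and Ms4a2 were within background on all 6 arrays. The summed levels, which include Mcpt8 and Milr1, were 6.74 to 8.05 on the cultured arrays, against 5.34 to 5.54 on the fresh arrays. Of 22 early response and stress genes, which sorting and dissociation are known to induce, 19 fell and none rose, with summed levels of 10.1 to 10.9 on the cultured arrays, against 15.9 to 16.1 on the fresh arrays. The part of Tek and these 3 lists in the fall of the NF-kB genes was not tested.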

How the data were processed

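The values deposited by the authors are log2 expression per probe set from Affymetrix whole-transcript mouse arrays, made with RMA in the oligo package per the submitters' processing notes, with no genome build stated in the labels used. RMA brings arrays to a common scale, so a shift shared by most transcripts would not show. Of 35556 probe sets, 21789 name exactly 1 gene, 1621 name several and 12146 are unlisted. The brightest probe set by mean over 6 arrays stood for each of 19938 genes, and symbols of 21698 probe sets were matched by gene ID to RefSeq. Cultured and fresh arrays were compared with limma 3.58.1 in R 4.3.3 (lmFit and eBayes, no covariate) with Benjamini-Hochberg adjustment over all genes, and this step was tested on simulated data. Background was the 95th percentile of 1196 receptor genes of the olfactory and vomeronasal families. The members and lists were chosen with earlier results of these data known. In each of the 6 pathway lists the text names up to 4 genes past the test with the largest change, and the gene with the highest mean, and it names the 5 genes most like Nfkbia. The alternatives were other normalizations, filters, other choices of probe set, priors, array weights, a fold minimum, a replicate block and leaving out each array.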

Additional observations from a re-analysis of the deposited data

How the results depend on the processing

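Under 18 alternatives the 9 NF-kB genes were tested in 156 cases and kept their side of the threshold and direction in 135, were no longer past it in 14 and changed sign in 7. The mean of all probe sets and the most variable probe set were among these alternatives. Each of the 9 genes has 1 probe set, so neither choice could change its fold, and these cases are no check of it. All 7 changes of sign came with arrays centred on ribosomal proteins, where Nfkb2 was at 0.86, Rel at 0.74, Rela at 0.17, Relb at 1.70, Nfkbib at 0.72, Nfkbie at 0.87 and Tnfaip3 at 0.71 on the log2 scale, while Nfkbia was at -1.88 (limma adjusted p = 0.0617) and Nfkbiz at -0.40 (adjusted p = 0.685). Of the other named genes, Tnfrsf12a was then at 0.30, Tnfrsf1a at 0.79, Myd88 at 0.32, Map3k8 at 1.08, Tax1bp1 at 0.31 and Bcl3 at 1.46. This centring adds 1 constant to every fold change and raised the SE of each NF-kB gene to 0.96. In it 0 NF-kB genes, 45 pathway genes and 12308 genes of all passed, of which 33 were lower and 12275 higher. Against 861 genes in the main setting, array weights gave 1742, quantile normalization 1511, cyclic loess 1492, a test against 1.2-fold 557 and a mean above 5 gave 501 of fewer genes tested; the cause of the differences with all genes tested was not tested. The share of calls that were higher was 22.1% in the main setting, 38.8% with quantile normalization, 30.6% with cyclic loess, 33.6% with array weights and 99.7% with ribosomal centring. With a mean above 5, 501 of 2264 genes passed, 457 of them lower, a larger share than in the main setting. Of the NF-kB genes 3 were then tested and 3 passed, and 10 pathway genes passed. Leaving out single arrays gave 448 to 1517 genes, 5 to 8 NF-kB genes and 12 to 20 pathway genes. Without cultured replicate 1 there were 1517, without cultured replicate 3 448, without fresh replicate 2 478 and without fresh replicate 3 471. Same-numbered arrays had correlations of -0.090, -0.144 and 0.034 in their deviations from the group means. With 3 arrays per group, these correlations cannot settle whether the replicate numbers pair the samples. With the number as a replicate block 662 genes, 7 NF-kB genes and 16 pathway genes passed, with Nfkbib at an adjusted p of 0.0771. In cultured cells 1 or more arrays were at background for Nfkbie, Nfkbiz, Birc3, Myd88, Tank, Ikbkb, Ikbkg, Cxcl2, Il6 and Ccnl1, which limits their folds. Tnfaip3 was just above background, as was Rel on cultured replicate 2.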
